A study of Drosophila melanogaster with 6 samples.

Results

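Lysine acetylation of histones is written by acetyltransferases and removed by deacetylases, and the balance between them sets how open chromatin is at promoters and enhancers. The genes described here are 5 deacetylase genes and the gene of the acetyltransferase CBP. They were chosen by symbol as the rows HDAC1, HDAC3, HDAC4, HDAC6, Sirt1 and nej of a deposited gene table, and all 6 were found among its 17737 genes. HDAC1 (also called Rpd3) is the catalytic subunit of the Sin3, NuRD and CoREST corepressor complexes. HDAC3 acts with the corepressor Smr. HDAC4 belongs to class IIa, whose proteins move between nucleus and cytoplasm and bind the transcription factor Mef2. HDAC6 is a largely cytoplasmic enzyme that removes acetyl groups from tubulin, and Sirt1 is a deacetylase that consumes NAD. The gene nejire (nej) encodes the fly CBP, a coactivator that acetylates histones at active enhancers.

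RNA was sequenced from Drosophila melanogaster brains at the third larval instar, in 3 control and 3 DNMT3L libraries. The control genotype is elavC155-Gal4, a neuronal driver of the yeast activator Gal4, and both groups carry it. The DNMT3L group is labelled as a cross of that driver to w/w flies with P(UAS-DNMT3L,w+) over Cyo and with TM2 over TM6B, where Cyo, TM2 and TM6B are balancer chromosomes. The UAS transgene encodes DNMT3L, a mammalian cofactor of DNA methyltransferases that has no catalytic activity of its own. The control label names no cross, so the transgene cannot be told apart here from the crossed background or any balancers. No label tells whether transgene carriers were separated from larvae with the balancer, or how many animals a library holds, and p-values then cover only the spread between these libraries, which may be technical. The transgene's own level was not analysed here.

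Total counts lay between 17928420 and 19251845 per library. Control library 1 and DNMT3L library 1 stood apart from the other 4 in opposite directions, along the exonic size of genes. Among the 474 tested genes with exons of over 8 kb, the median log2 deviation from the 6-library mean was −1.27 in control 1 and 1.01 in DNMT3L 1, and between −0.20 and 0.21 in the other 4 libraries. The 6 neuronal markers elav, nSyb, brp, Syt1, Syn and para were all detected and summed to 102 TMM-scaled CPM (counts relative to the size of each library after TMM scaling) in control 1 and to 1160 in DNMT3L 1, against 409 to 709 in the other libraries. The exons of these markers, from 4072 bases in nSyb to 16309 in para, are themselves long. In these bulk samples, fewer cells of a type and less RNA per cell cannot be told apart. Glial markers summed to between 1010 and 1606 CPM and neuroblast markers to between 250 and 550 CPM, so markers of the brain were present in every library. Markers of muscle (73.7 to 717 CPM), cuticle (76.9 to 1051 CPM), fat body (493 to 2036 CPM), hemocytes (79.9 to 265 CPM) and salivary gland (13.0 to 198 CPM) were present as well. The muscle, cuticle, fat body and hemocyte sums were highest in control 1, and those of muscle, cuticle and fat body were lowest in DNMT3L 1, the reverse of the neuronal sum. Between groups, the median log2 fold change was −1.32 for muscle, −1.61 for cuticle, −1.16 for fat body and −1.52 for hemocyte markers, against 1.35 for neuronal markers. Without both libraries numbered 1 these medians were −0.65, −0.53, −0.59, −0.83 and 0.50. Salivary gland markers went the other way from the 4 other tissues, with a median of 1.74, and 2.86 without both libraries. Their sum was lowest in control 2 and highest in DNMT3L 3. Neuroblast markers had a median of 0.42 and glial markers of 0.11, and of 0.33 and 0.12 without both libraries. No marker of any of these lists was at 0 in all 6 libraries.

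Levels between genes are given as FPKM, read counts corrected for exonic size and library total, as the authors deposited them. HDAC1 stood far above the rest, with a mean FPKM of 181 over the 6 libraries, higher than 95.6% of the tested genes. Sirt1 came next with a mean FPKM of 24.7, followed by HDAC6 with 10.7, nej with 7.25 and HDAC4 with 4.85. HDAC1 exceeded Sirt1, and Sirt1 exceeded HDAC6, in 6 of 6 libraries. HDAC6 exceeded nej in 5 of 6, DNMT3L 1 being the exception. The order of nej over HDAC4 held in 5 of 6 as well, control 1 being the exception. HDAC1 alone made up 77.8% to 86.8% of the summed FPKM of the 4 deacetylase genes with reads, HDAC3 being listed at 0.

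HDAC3 was listed at 0 reads in all 6 libraries. Its row lies on chromosome 3R from 5472810 to 5474600, minus strand, of the BDGP6 build, and the row of CG45100 has the same start, end, strand and exonic size of 1660 bases and is also at 0. In the Ensembl annotation the exons of the pair coincide over 100% of the exonic size of HDAC3. Across the deposited table, 225 genes share interval, strand and exonic size with another gene, and all 225 of them had no read, against 20.6% of the other 17512 genes. A count of 0 allows up to 3 reads per library, which corresponds to between 0.0939 and 0.101 FPKM for HDAC3. That limit applies to reads assigned to HDAC3 and not to its RNA, since a read in these exons fits both genes, and so no level or change of HDAC3 can be given from these counts.

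Setting DNMT3L against control brains asks whether the cross that carries UAS-DNMT3L goes with different levels of enzymes that write and remove histone acetylation. The largest difference was in nej, at 2.16-fold in DNMT3L over control, followed by HDAC4 at 1.52-fold and Sirt1 at 1.39-fold, while HDAC1 (1.05-fold) and HDAC6 (0.90-fold) lay close to 1. None of these differences passed the test. edgeR's quasi-likelihood test after Benjamini-Hochberg adjustment over the 9495 genes tested called 0 of the 5 genes that passed the filter on low counts, against 0% of all genes tested. At an unadjusted edgeR p under 0.05 it was again 0 of 5, against 15% of all genes, and DESeq2 called 0 of 5, against 3.08%. Positive log2 fold changes were found for 4 of the 5, against 47.7% of all genes, and their median was 0.48, against −0.03 over all genes. That median was 0.28 without control 1 or without DNMT3L 1, 0.07 without both, and 0.11 with the trend on exonic size taken out.

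**Figure D1:**
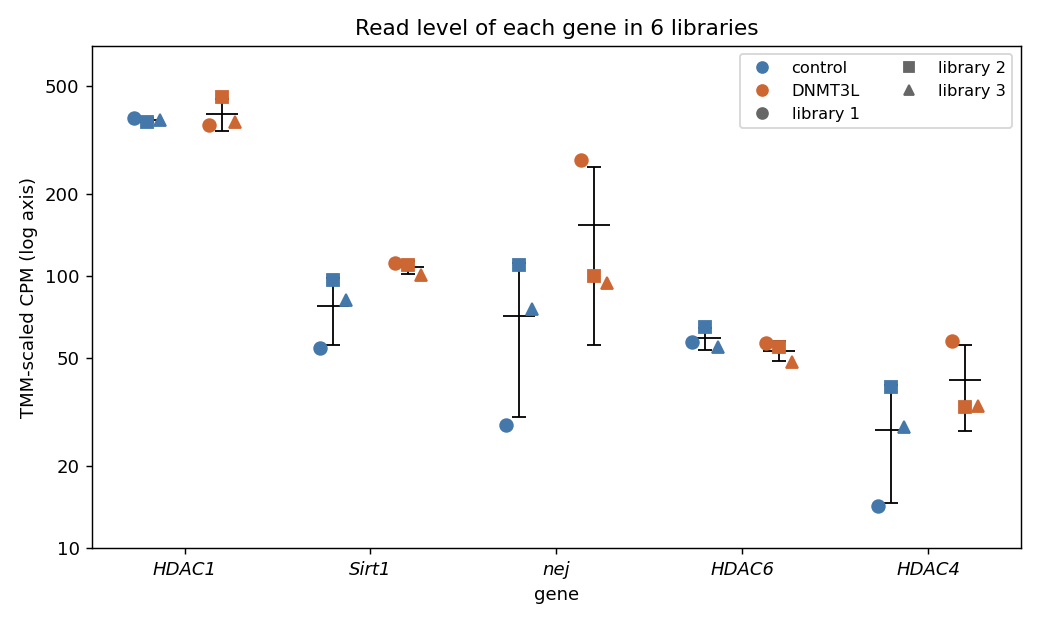
TMM-scaled CPM (log axis) of the 5 genes that passed the filter in each library, with control in blue and DNMT3L in orange, and circles, squares and triangles for libraries 1, 2 and 3. Horizontal bars are means and whiskers the SD (n = 3). The circles of nej, HDAC4 and Sirt1 lie lowest in the controls and highest in DNMT3L. Those of HDAC1 do neither, and for HDAC6 only the DNMT3L circle does, as the highest of its group.

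The CBP gene nej lies on X from 9665442 to 9687066, minus strand, and has 15.9 kb of exons. Its level was 28.4, 110 and 75.5 CPM in control libraries 1 to 3. In DNMT3L libraries 1 to 3 it was 266, 99.96 and 94.4 CPM. Control 1 and DNMT3L 1 held the lowest and the highest value, 9.36-fold apart, and both other DNMT3L libraries lay below control 2, so the groups overlapped. The group means were 71.1 ± 40.7 CPM and 153 ± 97.4 CPM (SD, n = 3), with a log2 fold change of 1.11 ± 0.59 (SE; edgeR adjusted p = 0.341). The 95% interval of the fold reached from 0.804 to 5.78, so it holds both no difference and a several-fold increase. Without DNMT3L 1 the log2 fold change of nej was 0.44, without control 1 it was 0.73, and without both it was 0.07.

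HDAC4, on X from 13262687 to 13285632, minus strand, with 7.22 kb of exons, had its lowest and highest values in the same libraries as nej, at a lower level. It was at 14.3, 39.3 and 27.8 CPM in controls 1 to 3 and at 57.9, 32.9 and 33.3 CPM in DNMT3L 1 to 3. Control 1 was lowest and DNMT3L 1 highest, 4.05-fold apart, and the groups overlapped because control 2 exceeded 2 of the 3 DNMT3L libraries. The log2 fold change was 0.61 ± 0.41 (SE; edgeR adjusted p = 0.391), with an interval of the fold from 0.776 to 2.99. Without control 1 it was 0.30, without DNMT3L 1 it was 0.28, and without both libraries it was −0.020. Over the 6 libraries, the log2 CPM of HDAC4 and nej had a Pearson r of 0.99, as a description of these libraries.

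Sirt1, on 2L from 13165564 to 13169551, plus strand, with 3.81 kb of exons, was the one gene of the 5 whose groups did not overlap, against 28.1% of all genes tested and 14% of all genes in the higher direction. Control libraries 1 to 3 were at 54.2, 96.4 and 81.4 CPM, and DNMT3L libraries 1 to 3 at 112, 110.0 and 101 CPM. The DNMT3L libraries lay close together, with a coefficient of variation of 5.26%, and the controls were spread over 27.6%. The means were 77.4 ± 21.4 and 108 ± 5.66 CPM (SD, n = 3), and the log2 fold change was 0.48 ± 0.22 (SE; edgeR adjusted p = 0.333), with an interval of the fold from 0.959 to 2.02. It was 0.28 without control 1 and 0.25 without both libraries numbered 1. The exons of Sirt1 overlap those of the DnaJ-H gene on the opposite strand over 509 bases, 13.4% of the exonic size of Sirt1. Whether reads were counted by strand is unstated in the sources used here. DnaJ-H had 795 to 930 reads in the controls and 865 to 954 in DNMT3L, so that gene did not follow the low value of Sirt1 in control 1.

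HDAC1, on 3L from 4626734 to 4629467, plus strand, with 2.12 kb of exons, varied least among the controls, with a coefficient of variation of 1.71%. It was at 379, 367 and 373 CPM in controls 1 to 3 and at 359, 454 and 367 CPM in DNMT3L 1 to 3. DNMT3L 2 was the highest library and DNMT3L 1 the lowest, and the groups overlapped. The log2 fold change was 0.08 ± 0.15 (SE; edgeR adjusted p = 0.743), with an interval of the fold from 0.825 to 1.35. Without DNMT3L 2 it was −0.039. In deposited FPKM, which carry no TMM scaling, the libraries of HDAC1 were at 153, 175 and 169 in controls and at 177, 225 and 186 in DNMT3L and did not overlap, so the separation of HDAC1 depends on the scaling. Over all tested genes, log2(FPKM + 1) moved the median log2 fold change from −0.03 to 0.12.

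HDAC6, on X from 15333310 to 15340360, plus strand, with 5.25 kb of exons, was the one gene of the 5 with a negative log2 fold change. Controls 1 to 3 were at 57.3, 65.2 and 54.8 CPM and DNMT3L 1 to 3 at 56.7, 54.7 and 48.2 CPM. The groups overlapped, and control 1 and DNMT3L 1 were nearly equal. The log2 fold change was −0.15 ± 0.14 (SE; edgeR adjusted p = 0.51), with an interval of the fold from 0.709 to 1.142, and it was 0.017 by limma on log2(FPKM + 1). The noncoding gene CR44998 overlaps HDAC6 on the opposite strand over 1106 exonic bases, 21.1% of the exonic size of HDAC6, and had 10 reads in all libraries together.

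**Figure D2:**
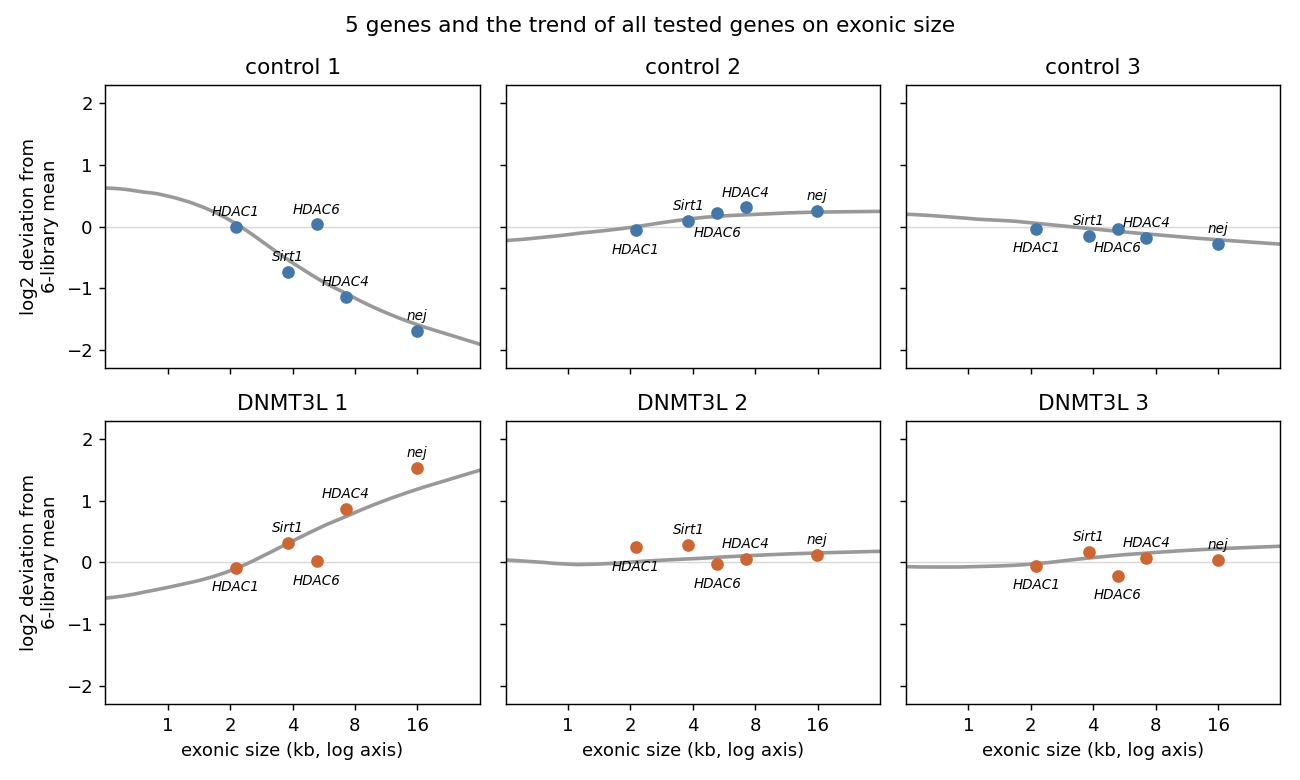
Log2 deviation of each gene from its mean over the 6 libraries (vertical axis) against exonic size in kb (log axis), 1 panel per library. The grey line is the loess trend of all 9495 tested genes. HDAC6 lies at a distance of 0.87 from it in control 1, −0.52 in DNMT3L 1 and −0.33 in DNMT3L 3. The other 4 genes lie within 0.35 of it in all libraries.

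Exonic size orders most of these values. The summed markers of neurons, muscle, cuticle and fat body also had their extremes in control 1 and DNMT3L 1, as given above. The salivary gland sum did not, and the hemocyte sum was highest in control 1 but lowest in DNMT3L 2. In control 1 the log2 deviation was −0.01 for HDAC1, −0.73 for Sirt1, −1.14 for HDAC4 and −1.69 for nej, in the order of their exonic sizes. In DNMT3L 1 it was −0.09, 0.31, 0.87 and 1.54 for the same genes in the same order. The trend of all tested genes at the sizes of these genes was 0.05, −0.54, −1.08 and −1.59 in control 1, and −0.10, 0.31, 0.74 and 1.19 in DNMT3L 1. HDAC6 departed from it. At its size the trend stood at −0.84 in control 1 and 0.54 in DNMT3L 1, and the gene itself was at 0.04 and 0.02. With the trend taken out of each library, the log2 fold change of nej was 0.11 (edgeR adjusted p = 0.653), that of HDAC4 0.00 (edgeR adjusted p = 0.986), that of Sirt1 0.22 (edgeR adjusted p = 0.258), that of HDAC1 0.14 (edgeR adjusted p = 0.432) and that of HDAC6 −0.69 (edgeR adjusted p = 0.179). HDAC6 did not follow the trend in control 1 or DNMT3L 1, so its move from −0.15 to −0.69 carries the trend that was taken out. It was also off the trend in DNMT3L 3, at a distance of −0.33. With the trend taken out and control 1 left out, a setting added after the data were seen, HDAC6 was at −0.36 (edgeR adjusted p = 0.232). The part of library quality or of cell makeup in these values was not tested.

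**Figure D3:**
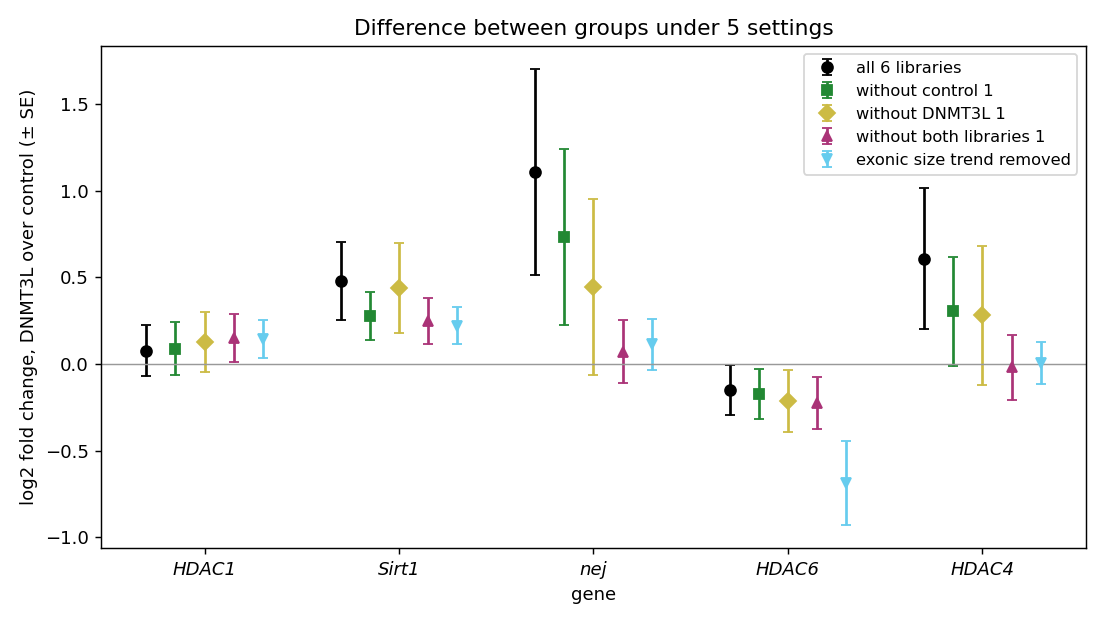
Log2 fold change of DNMT3L over control (points, with whiskers of 1 SE) for the 5 genes under 5 settings. The values of nej go from 1.11 with all libraries to 0.07 without both libraries numbered 1, while Sirt1 stays above 0 in all 5 settings and HDAC6 is below 0 in all 5.

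The level of nej per 100 FPKM of the 5 deacetylase genes, HDAC3 at 0 included, was 0.865, 3.19 and 2.24 in controls 1 to 3. In DNMT3L 1 to 3 it was 7.68, 2.44 and 2.78. The extremes were again the libraries numbered 1, and the other 4 lay between 2.24 and 3.19 with the groups interleaved. The mean log2 ratio was −5.77 ± 0.97 in controls and −4.74 ± 0.91 in DNMT3L (SD, n = 3), a difference of 1.03 that is close to the spread within each group.

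**Figure D4:**
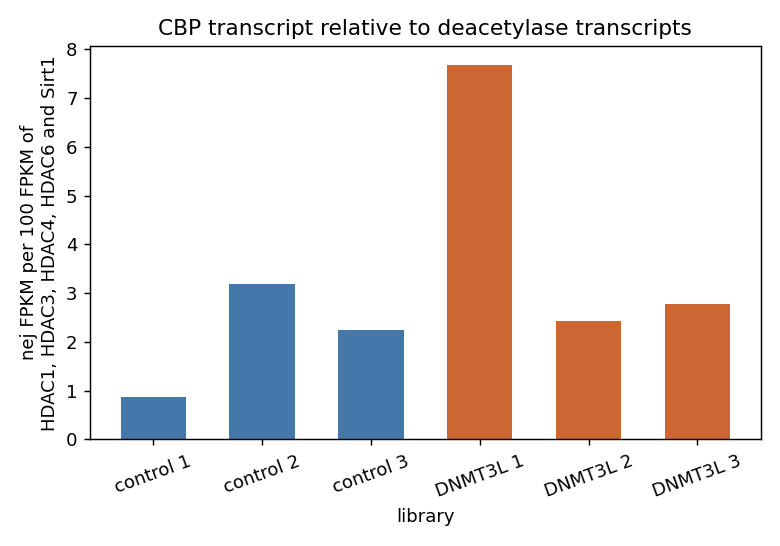
FPKM of nej per 100 FPKM of HDAC1, HDAC3, HDAC4, HDAC6 and Sirt1 together, 1 bar per library, controls in blue and DNMT3L in orange. DNMT3L 1 reaches 7.68 and control 1 lies at 0.865, with the other 4 libraries between 2.24 and 3.19.

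Genes whose log2 CPM ran most like each of the 5 were sought among 7153 other genes with a mean of at least 10 CPM, by Pearson r over the 6 libraries. For nej they were CG7956, Atx2 and Mhcl, each with r of 1.00, and for HDAC4 they were ZAP3, Taf1 and su(sable), also with r of 1.00. Such likeness was common for both, since 27.3% of the genes had r over 0.9 with nej and 28.4% with HDAC4. Sirt1 ran most like insc, Dp and Atg9 (r of 1.00, 0.99 and 0.99), and 21.3% of the genes had r over 0.9 with it. HDAC1 and HDAC6 had few such genes. HDAC1 ran most like Myt1, Hydr1 and Nmnat (r of 0.97, 0.96 and 0.96), with 13 genes over 0.9, and HDAC6 most like CG11696, CG11436 and eIF5B (r of 0.98, 0.97 and 0.96), with 26 genes over 0.9. These are descriptions over 6 points that share their libraries.

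The remaining 5 lysine deacetylase genes of the fly were all tested, 2 with positive and 3 with negative log2 fold changes, and their median was −0.03, as was that over all genes. It was 0.07 without control 1 and 0.17 with the size trend taken out. Sirt2, whose mammalian counterpart is a cytoplasmic sirtuin, was at 33.6, 31.2 and 32.4 CPM in controls 1 to 3 and at 30.02, 29.3 and 28.6 CPM in DNMT3L 1 to 3. Its values lay close together, with a log2 fold change of −0.14 ± 0.13 (SE, edgeR adjusted p = 0.498). Its groups did not overlap, which held for 1 of these 5 genes and for 28.1% of all genes tested. Sirt7, a nuclear sirtuin of the nucleolus in mammals, was at 19.9 ± 3.83 against 23.2 ± 0.935 CPM (SD, n = 3; edgeR adjusted p = 0.471), with control 1 lowest at 16.1 CPM. Sirt6 was at 9.87 ± 0.73 against 9.69 ± 1.21 CPM, the mitochondrial sirtuin gene Sirt4 at 3.87 ± 0.892 against 3.60 ± 1.22 CPM, and HDAC11, of class IV, at 2.83 ± 0.387 against 3.29 ± 0.797 CPM, and the groups overlapped in all 3. All 5 have exons of under 4 kb. The exons of Sirt4 overlap CR45520 on the opposite strand over 78.1% of their size, and those of HDAC11 overlap Nct over 22.1%, so these low counts are uncertain.

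Partners of the deacetylases were tested for 16 of 16 genes. Of these, 13 lay above 0 and 3 below it on the log2 fold scale, with a median of 0.23. edgeR called 0 of them, against 0% of all genes, and DESeq2 0, against 3.08%. At an unadjusted edgeR p under 0.05 it was 0 of 16, against 15% of all genes. Caf1-55, the histone-binding subunit that NuRD shares with other complexes, was at 387 ± 25.7 against 372 ± 24.9 CPM. The corepressor gene CtBP was at 482 ± 81.0 against 580 ± 97.9 CPM. Without both libraries numbered 1 the median of the list was 0.00. Smr, the partner of HDAC3 and named here for that reason after its values were seen, has 15.6 kb of exons and was at 12.5, 79.9 and 45.3 CPM in controls against 161, 53.6 and 51.1 CPM in DNMT3L, an order of libraries like that of nej.

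The 8 other lysine acetyltransferase genes had a median of 0.13, with 5 positive and 3 negative. It was 0.05 without control 1, −0.0043 without both libraries numbered 1 and −0.05 with the size trend taken out. Hat1, which acetylates newly made histones, was at 161 ± 33.2 against 145 ± 26.3 CPM, and Elp3, the catalytic subunit of Elongator, at 55.1 ± 11.2 against 45.4 ± 4.13 CPM. Of 9 genes with domains that read acetylated lysine or of their complexes, 8 were positive with a median of 0.49, which was 0.02 without both libraries numbered 1. In that list the remodeller gene brm was at 252 ± 84.8 against 357 ± 82.4 CPM and the bromodomain gene CG7154 at 126 ± 9.16 against 131 ± 7.08 CPM. No gene of these lists was called by edgeR or DESeq2, against 0% and 3.08% of all genes. None had an unadjusted edgeR p under 0.05, against 15% of all genes.

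Among 12 DNA-binding factors and their cofactors that recruit CBP, 8 were positive with a median of 0.17. That median was 0.0015 without control 1, −0.0024 without DNMT3L 1 and −0.09 without both, so its direction rests on those libraries. Of these genes edgeR and DESeq2 called 0, against 0% and 3.08% of all genes. At an unadjusted edgeR p under 0.05 it was 1 of 12, against 15% of all genes. Here arm, the fly beta-catenin, was at 1090 ± 150.1 against 1077 ± 145 CPM, and the Smad gene Med at 105 ± 26.4 against 131 ± 25.7 CPM. All 8 genes of the class IIa deacetylase axis, which holds Mef2, the 14-3-3 proteins that retain class IIa enzymes in the cytoplasm, kinases and a scaffold gene, were positive with a median of 0.54, which was 0.20 without both libraries numbered 1 and 0.03 with the size trend taken out. edgeR and DESeq2 called 0 of the 8, against 0% and 3.08% of all genes, and 0 had an unadjusted edgeR p under 0.05, against 15%. The gene 14-3-3epsilon was at 2156 ± 291 against 2577 ± 517 CPM. For 14-3-3zeta, controls 1 to 3 were at 1121, 1199 and 1228 CPM and DNMT3L 1 to 3 at 1564, 1374 and 1432 CPM. These groups did not overlap, with a log2 fold change of 0.30 ± 0.14 (SE, edgeR adjusted p = 0.333). In this list 3 of 8 genes were higher without overlap, against 14% of all genes.

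The list of HDAC6 substrates and autophagy genes went the other way, with 6 of 9 negative and a median of −0.19, which was −0.02 with the size trend taken out. edgeR called 0 of the 9, with 2 at an unadjusted p under 0.05, against 15% of all genes. The tubulin gene alphaTub84B was at 8260 ± 1285 against 6600 ± 856 CPM and betaTub56D at 6654 ± 1121 against 5341 ± 529 CPM. The alpha-tubulin genes are near-identical copies, so their split is uncertain. DESeq2 called 1 of the 9, against 3.08% of all genes. It was futsch (DESeq2 adjusted p = 0.0248; edgeR adjusted p = 0.322), which encodes a microtubule-associated protein of neurons and has 23308 bases of exons. It is named here after its values were seen, at 15.99, 43.2 and 38.0 CPM in controls and 137, 64.8 and 88.6 CPM in DNMT3L. Control 1 was its lowest library and DNMT3L 1 its highest. The groups of futsch did not overlap, where 14% of all genes tested were higher without overlap. CG3967 is the tubulin acetyltransferase gene Atat in the reference names, whose enzyme opposes HDAC6. Likewise named after its values were seen, it was at 59.9 ± 14.5 against 91.7 ± 7.73 CPM without overlap (edgeR adjusted p = 0.332). Of the 9 genes, 2 were higher without overlap, against 14% of all genes, and 0 were lower without overlap.

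Of 6 genes of Polycomb methylation and enhancer chromatin, 5 were positive with a median of 0.47, which was 0.26 without both libraries numbered 1. The demethylase gene Utx was at 76.2 ± 21.9 against 114.9 ± 24.0 CPM and Su(z)12, a subunit of Polycomb complex PRC2, at 74.3 ± 22.7 against 93.6 ± 21.9 CPM. edgeR called 0 of the 6, with 2 at an unadjusted p under 0.05, against 15% of all genes, and DESeq2 called 0, against 3.08%.

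**Figure D5:**
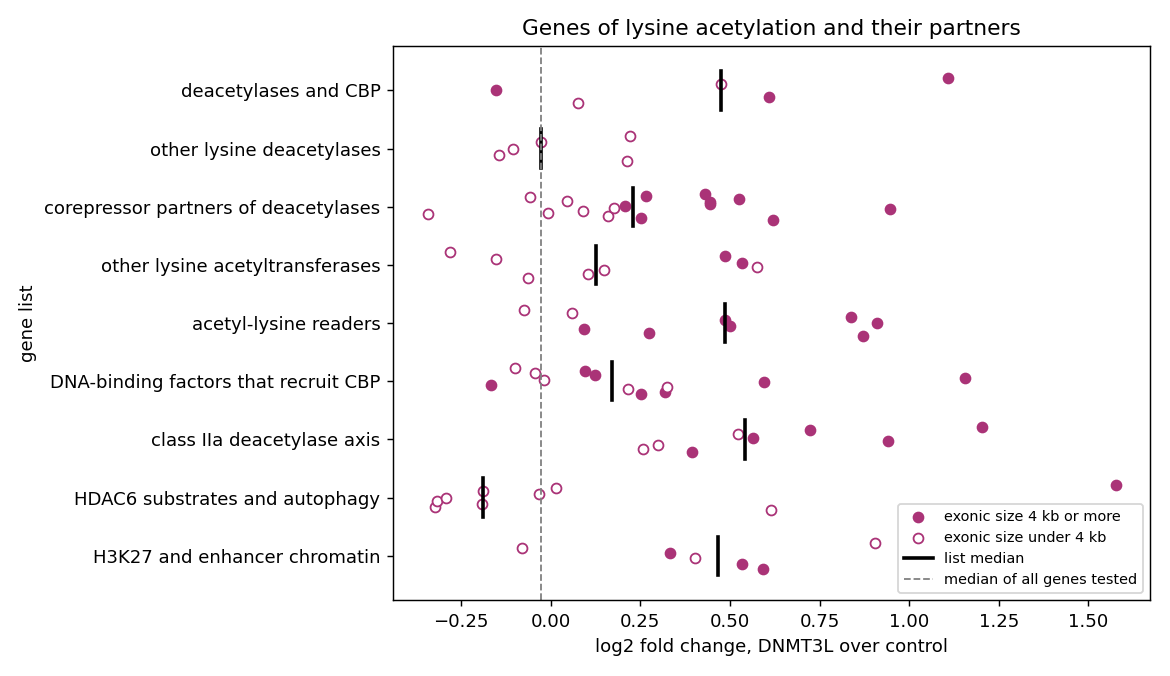
Log2 fold change (DNMT3L over control) of each tested gene of the 9 lists, filled for exonic sizes of 4 kb or more and open below, with list medians as black bars and the median of all tested genes, −0.03, as a dashed line. Outside the first list, 32 of the 33 genes drawn filled lie above 0, and the open points lie on both sides of it. Of all tested genes, 84.8% at 4 to 8 kb and 93.7% above 8 kb lie above 0.

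Over the lists other than the first together, split at 4 kb after the values were seen, 32 of 33 genes at or above that size were positive with a median log2 fold change of 0.50, and 19 of 39 smaller genes were positive with a median of −0.01. Without both libraries numbered 1, the positive genes were 16 of 33 and 22 of 39. With all libraries, 84.8% of all tested genes of 4 to 8 kb and 93.7% of those above 8 kb were positive. The share was 57.4% at 2 to 4 kb, 24.5% at 1 to 2 kb and 17.0% below 1 kb. Over all tested genes the median log2 fold change was −0.41 below 1 kb and 0.76 above 8 kb of exons, and −0.04 and 0.10 without both libraries.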

How the data were processed

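Counts and FPKM come from 1 table the authors deposited, with whole-number read counts per gene, FPKM and exonic sizes for each of 6 libraries per the file headers. The deposited FPKM were recomputed from counts, exonic size and total count for 100% of values (tolerance 0.006). Tools named in the submitters' processing notes are HTSeq 0.6.1, HISAT2 2.0.1, cutadapt 1.9.1 and DESeq2, and the builds are dm6 and BDGP6. Of 17737 identifiers, 17465 had identical coordinates in the Ensembl release used here.

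Here edgeR 4.0.16 (R 4.3.3) was run over the table: filterByExpr kept 9495 genes, with TMM scaling, glmQLFit and glmQLFTest, two-sided, Benjamini-Hochberg adjustment, threshold 0.05. SE follow from the F statistic. Intervals are 95%. The floor of 3 counts was 0.156 to 0.167 CPM and covers counting error only. Alternatives were DESeq2 1.42.0, other scalings, no filter, a replicate block, left-out libraries, a loess offset on exonic size (span 0.5) and limma 3.58.1 on log2(FPKM + 1) and log2(FPKM + 0.1). The scripts were tested on simulated data. Of 122 list and marker entries, 119 matched by symbol and 3 through reference names.

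The genes and lists were chosen with earlier results of these data known. By rule the text names the 6 genes, the 5 other deacetylases and the 3 genes most like each gene. Of each other list it names the genes called by edgeR, or otherwise the 2 tested genes with the highest mean FPKM. Smr, futsch and CG3967 were named outside this rule, after their values were seen.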

Additional observations from a re-analysis of the deposited data

How the results depend on the processing

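None of the 5 tested genes was called under any of 16 alternatives, where the adjusted p lay between 0.187 and 0.91 for nej, 0.188 and 0.986 for HDAC4, 0.186 and 0.702 for Sirt1, 0.325 and 0.968 for HDAC1, and 0.179 and 0.959 for HDAC6. The log2 fold changes of nej and Sirt1 were positive under all 16. That of HDAC1 turned to −0.039 without DNMT3L 2. That of HDAC4 turned to −0.020 without both libraries numbered 1 and to −0.027 without control 1 and with the size trend removed, a setting added after the data were seen. That of HDAC6 turned to 0.017 and 0.019 by limma with pseudocounts of 1 and 0.1, where values carry no TMM scaling. The causes were not tested. With 1 library left out, log2 fold changes ranged from 0.44 to 1.56 for nej, 0.28 to 0.97 for HDAC4, 0.28 to 0.66 for Sirt1, −0.04 to 0.13 for HDAC1 and −0.21 to −0.08 for HDAC6. Of the list medians under the alternatives, 19 moved by more than the SD of library medians within groups and 109 did not. That SD includes control 1 and DNMT3L 1, so the 109 cannot be read as stable. Without both libraries numbered 1, they include the corepressor partners, from 0.23 to 0.00. They also include the factors that recruit CBP, from 0.17 to −0.09. The log2 ratio of nej to the deacetylases differed by 0.48 to 1.42 with 1 library left out. The count of genes called over the whole table, 0 in edgeR with 1427 at an unadjusted p under 0.05, was 292 by DESeq2, 2 with DESeq2 size factors, 6 without the filter, 23 without both libraries numbered 1, 13 with the size trend removed, 22 with that and without control 1, and 13 and 11 by limma with pseudocounts of 1 and 0.1. It was 0 with upper-quartile factors and with each library left out. The numbers are not treated as pairs, since no label says that they pair libraries. Same-numbered libraries did not deviate together (r of −0.66, −0.54 and −0.18 across genes), and no library correlated best with its own number. These r cannot decide whether the numbers mark pairs. They use deviations within each group and carry the opposite departures of control 1 and DNMT3L 1. With the replicate block 0 genes were called, 458 at an unadjusted p under 0.05, and the log2 fold change of nej was 1.05 (adjusted p = 0.652).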

Other observations

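The 225 genes that share interval, strand and exonic size with another gene fall on 108 intervals, and 221 of them are protein-coding in the Ensembl annotation. HDAC3 is thus 1 of many coding genes whose level cannot be read from this table.

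The functional terms that the deposited table attaches to HDAC1 and HDAC3 name NAD-dependent deacetylase activity, which is the chemistry of sirtuins such as Sirt1, whereas class I enzymes are known to use zinc. The terms attached to HDAC6 include the tricarboxylic acid cycle. These terms were not used in any value above.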
